A study of Caenorhabditis elegans with 4 samples.

Results

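The 69 genes described here encode proteins of the mitochondrial ribosome of the nematode Caenorhabditis elegans. They were chosen by name, as every gene of the files whose WormBase public name starts with mrpl- (40 genes, large subunit) or mrps- (29 genes, small subunit), out of 20535 genes in all. RNA of whole young adult animals was compared between strain VL1080, which carries the allele ww4 of mccc-1 on chromosome IV together with the integrated array wwIs24, and the control strain VL749, which carries wwIs24 alone. In wwIs24, shared by both strains, the acdh-1 promoter drives GFP, and the labels list it with unc-119(ed3). The product of mccc-1 is one part of methylcrotonyl-CoA carboxylase, which works in mitochondria in the breakdown of leucine. What ww4 changes in the gene is not stated in the labels. All animals were synchronized by 20 h of first-stage larval arrest, fed Comamonas aquatica DA1877 on nematode growth medium, and collected 70 h after hatching at 20 °C, at least 200 animals per library. Each strain had 2 libraries, called biological replicates. Whether they came from separate cultures is not stated, and a p-value here reflects only how far these libraries scatter, which may be technical.

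Mitochondria carry their own small genome, and its few messenger RNAs are translated inside the organelle by a dedicated ribosome. The RNA of that ribosome comes from the mitochondrial genome, but all of its proteins are encoded in the nucleus, made in the cytosol and imported. Its products are core subunits of the respiratory chain and the ATP synthase. In worms, lowering mitochondrial ribosomal proteins by RNA interference, mrps-5 being the best known case, is reported to extend lifespan and to induce the mitochondrial unfolded protein response.

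Values are FPKM, that is, fragments per kilobase of transcript scaled to the mapped fragments of the library, and summed to 741399 and 770579 in the mccc-1(ww4) libraries and to 786436 and 780720 in the control libraries. From the spacing of low values, the depth was estimated at 11300000 to 11800000 fragments per library. By that estimate a mitochondrial ribosomal protein gene rested on at least 77 fragments in every library, with a median over genes of 341 in its least covered library. These counts use the full annotated transcript length and may be too high for short transcripts. Of 13091 tested genes, 1095 passed the test between strains, which is 8.36%, with 1.06% higher and 7.3% lower in the mutant (limma-trend on log2(FPKM + 1), Benjamini-Hochberg adjusted p under 0.05). That count was 176 without control replicate 2, 148 without mccc-1(ww4) replicate 1 and 484 without mccc-1(ww4) replicate 2. The messenger RNA of mccc-1 itself had 100.43 and 100.33 FPKM in the mutant and 104.19 and 105.26 FPKM in the control libraries (log2 fold change -0.06, adjusted p = 0.821 by limma), so its level gave no check of the strain labels. Markers of intestine, muscle, pharynx, hypodermis, neurons and germline were present in every library, and 2 of 4 hypodermal markers stayed under 1 FPKM throughout. The libraries were not alike in other respects. The 36 sperm markers summed to 2865 and 4378 FPKM in the mccc-1(ww4) libraries, against 11202 and 10750 FPKM in the control libraries. Fewer cells of a type and less RNA per cell cannot be told apart in such bulk samples. The 12 oocyte markers summed to 3706 and 3383 FPKM in mutant, against 2676 and 2160 FPKM in control libraries, and the 7 germline markers to 1061 and 1058 FPKM in mutant, against 1053 and 1063 FPKM in control libraries. The part of these differences in the results below was not tested.

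None of the 69 mitochondrial ribosomal protein genes passed the test in either direction. All 69 had passed the filter of at least 1 FPKM in at least 2 libraries, and every one of them was well above it. Their log2 fold changes (mccc-1(ww4) over control) ran from -0.16 for mrpl-44 to 0.47 for mrpl-40, with a median of 0.11, beside a median of 0.05 over all tested genes. The 95% interval of the difference, not adjusted for the number of genes, lay within a 2-fold change in both directions for all 69 genes and within 1.5-fold for 57. Its lowest bound was -0.56 and its highest 0.94 on the log2(FPKM + 1) scale. At an unadjusted p under 0.05, limma picked out 3 members, mrps-34, mrpl-48 and mrpl-53, against 21.6% of all tested genes, and the lowest adjusted p was 0.105, for mrps-34. Across the 15 alternative settings no member passed either.

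**Figure D1:**
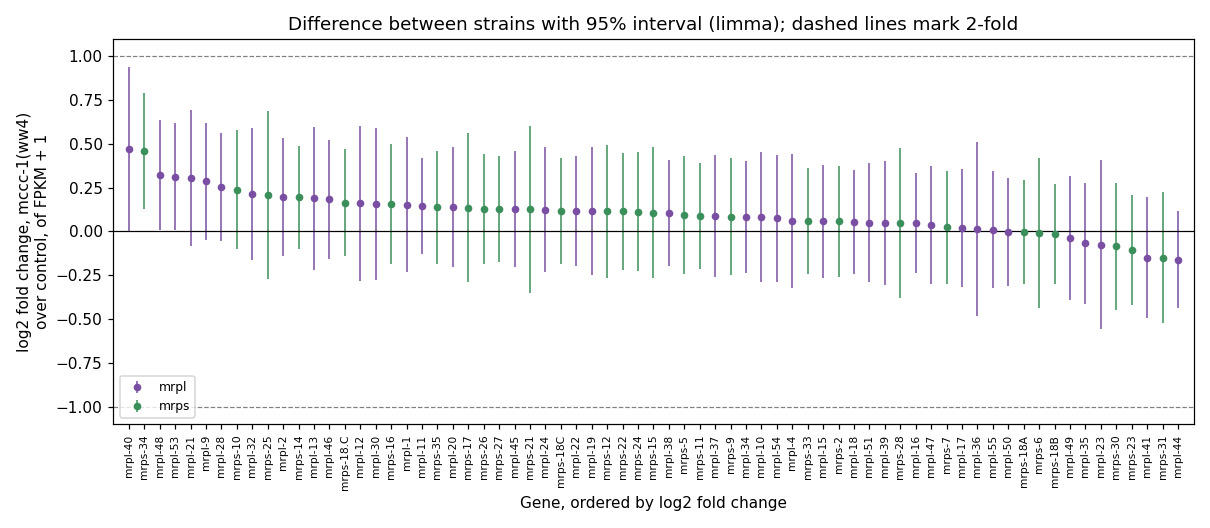
Fitted log2 fold change of each of the 69 genes, mccc-1(ww4) over control, on the log2(FPKM + 1) scale (points), with the unadjusted 95% interval from limma (bars; 2 libraries per strain). The points run from 0.47 for mrpl-40 at the left to -0.16 for mrpl-44 at the right, and no interval reaches the dashed lines at a 2-fold change.

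Small differences above 0 outnumbered those below it. The log2 fold change was positive for 57 of 69 genes, or 82.6%, where 55.6% of all tested genes had a positive one. Summed over the 69 genes, the level was 3428 and 3489 FPKM in the mccc-1(ww4) libraries and 3133 and 3325 FPKM in the control libraries, so the strains did not overlap in this sum. The sum averaged 3459 ± 43.0 FPKM in the mutant and 3229 ± 136 FPKM in the control (SD, n = 2 each), a ratio of 1.07. Single genes were less separated. In 25 of the 69 both mutant libraries lay above both control libraries, against 28.9% of all tested genes, in 3 both lay below, against 23.2%, and in 41 the strains overlapped. The median of the 69 genes moved with the scaling, and so did that of all tested genes. With median-of-ratios scaling the median log2 fold change was 0.053 (47 of 69 positive), beside -0.004 over all tested genes. With quantile normalization it was 0.036 (43 positive), below the median of all tested genes, 0.094. Without control replicate 1 the median was 0.050, with 46 positive, beside 0.019 over all tested genes. Scaling every library to the same FPKM sum gave 0.159 with 62 positive, beside 0.095 over all tested genes.

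By library, control replicate 1 stood apart. It held the lowest of the 4 values for 41 of the 69 genes and the highest for 1, whereas control replicate 2 held the lowest for 14 and the highest for 10. mccc-1(ww4) replicate 1 held the lowest for 10 genes and the highest for 27, and mccc-1(ww4) replicate 2 the lowest for 4 and the highest for 31. Relative to each gene's mean over the 4 libraries, the median gene was at 0.04 and 0.06 (log2) in the mutant libraries, at -0.09 in control replicate 1 and at 0.00 in control replicate 2. The replicates of these genes were close to each other. Their median within-strain SD was 0.110 on the log2(FPKM + 1) scale, beside 0.138 for the 4967 tested genes with mean levels in the same range.

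**Figure D2:**
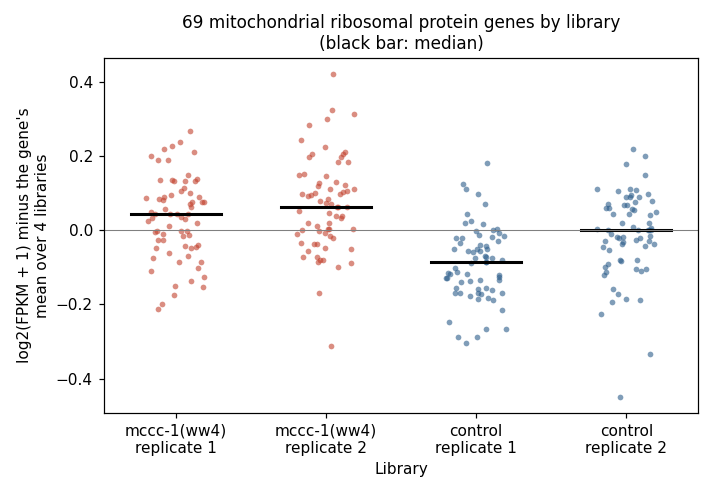
Deviation of each of the 69 genes from its own mean over the 4 libraries, in log2(FPKM + 1), 1 point per gene, with the median as a black bar. The clouds of all 4 libraries overlap widely, and the median of control replicate 1 is the lowest, at -0.09.

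In level, most of these genes sat in a narrow band. The mean over the 4 libraries was 20 to 80 FPKM for 63 of 69 genes, with a median of 45 FPKM and a range from 19.6 FPKM (mrps-28) to 163 FPKM (mrpl-44). mrpl-11, a protein at the base of the stalk that recruits translation factors, had 111.63 and 110.04 FPKM in mutant libraries, against 98.21 and 102.22 FPKM in control libraries. mrpl-51 followed at 108.88 and 92.83 FPKM in mutant, against 90.3 and 104.54 FPKM in control libraries. Both are thus among the most abundant messages of the set, and only for mrpl-11 did the strains not overlap, by a few FPKM. mrpl-9 had 91.98 and 92.83 FPKM in mutant libraries, against 68.28 and 83.65 FPKM in control libraries (log2 fold change 0.29 with an SE of 0.14, adjusted p = 0.306 by limma), and its log2 fold change was 0.14 without control replicate 1. mrps-18A had 80.87 and 82.44 FPKM in mutant, against 76.93 and 87.08 FPKM in control libraries, with the mutant values inside the control range. At the low end stood mrps-28, with 17.5 and 22.52 FPKM in mutant and 19.26 and 19.1 FPKM in control libraries. mrpl-54 had 20.91 and 22.19 FPKM in mutant, against 20.2 and 20.58 FPKM in control libraries, and mrpl-13 had 24.73 and 20.45 FPKM in mutant, against 18.55 and 20.69 FPKM in control libraries. The estimated fragment counts behind such short, low genes were small, 95 for mrpl-54 and 127 for mrps-28 in the least covered library, and 10 of the 69 genes rested on fewer than 200. The thinnest was mrpl-36, with an estimated 77 fragments, for which counting alone gives a relative error of 11.4%. That error is larger if the count of this short transcript was overestimated.

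**Figure D3:**
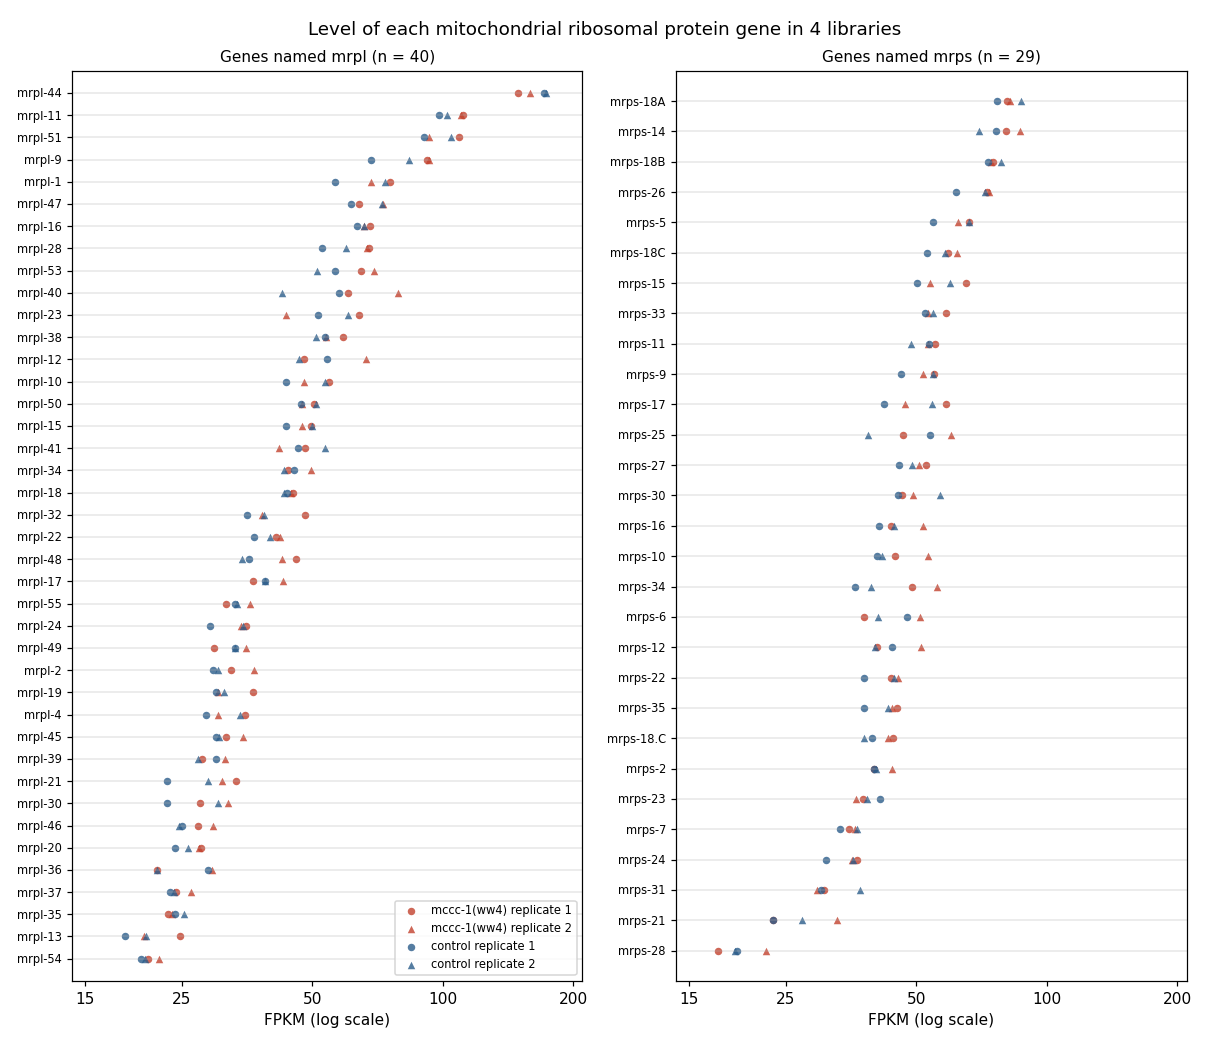
FPKM (log axis) of the 40 mrpl and 29 mrps genes in the 2 mccc-1(ww4) libraries (red) and the 2 control libraries (blue), circles for replicate 1 and triangles for replicate 2, each panel ordered by mean level. Differences between genes, from about 20 FPKM for mrps-28 to 163 FPKM for mrpl-44, are much wider than those between strains within a gene.

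In the large subunit, the 40 mrpl genes had a median log2 fold change of 0.10, with 34 of 40 positive. Their sum was 1987 and 1996 FPKM in the mutant and 1806 and 1911 FPKM in the control libraries. mrpl-40, whose mammalian counterpart sits in the central protuberance, where the subunits and the transfer RNA meet, had the highest log2 fold change of the set. It had 60.59 and 78.76 FPKM in mutant libraries, against 57.76 and 42.63 FPKM in control libraries, and averaged 69.7 ± 12.8 FPKM in the mutant and 50.2 ± 10.7 FPKM in the control (SD, n = 2 each), with a log2 fold change of 0.47, an SE of 0.20 and an adjusted p of 0.231 by limma. The libraries of a strain differed here almost as much as the strains did. Without control replicate 2 its log2 fold change was 0.25, and without mccc-1(ww4) replicate 2 it was 0.28. mrpl-48, of the same protuberance, had 45.8 and 42.65 FPKM in mutant libraries, against 35.75 and 34.5 FPKM in control libraries (0.32, SE 0.13, adjusted p = 0.216 by limma), with tight replicates in both strains. Other genes placed in this structure, mrpl-18, mrpl-38 and mrpl-46, had log2 fold changes of 0.05, 0.11 and 0.18. All 5 had both mutant libraries above both control libraries, against the 28.9% of all genes given above. However, these genes were grouped by structure after their values had been seen, and the 5 are not a full list. mrpl-35 and mrpl-55, which may also belong there, were not in the group. mrpl-35 had both mutant libraries below both control libraries (-0.07), and for mrpl-55 the strains overlapped (0.01). Of the 5, 4 were positive under median-of-ratios scaling and under quantile normalization.

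mrpl-53, with no bacterial counterpart, had 64.74 and 69.55 FPKM in mutant libraries, against 56.57 and 51.3 FPKM in control libraries (log2 fold change 0.31 with an SE of 0.13, adjusted p = 0.222 by limma). By gene span it overlaps nhr-19 on the opposite strand. Whether their exons overlap was not examined and strandedness is not stated, so some reads of the pair may not be told apart. mrpl-21 had 33.29 and 31.03 FPKM in mutant, against 23.18 and 28.83 FPKM in control libraries (0.30, SE 0.16, adjusted p = 0.351 by limma), and its log2 fold change was 0.15 without control replicate 1. Among the stalk genes, mrpl-1 had 75.64 and 68.3 FPKM in mutant, against 56.45 and 73.7 FPKM in control libraries, so the strains overlapped. mrpl-10, mrpl-11 and mrpl-12, which form or anchor the other stalk, had log2 fold changes of 0.08, 0.14 and 0.16. mrpl-12, the stalk protein itself, varied more within the strains than between them, with 47.79 and 66.38 FPKM in mutant and 54.17 and 46.64 FPKM in control libraries. Along the tunnel through which the new peptide leaves, mrpl-4, mrpl-22, mrpl-23, mrpl-24, mrpl-45 and mrpl-47 had a median log2 fold change of 0.09, which was -0.03 with 3 of 6 positive without control replicate 1. mrpl-23 was the one negative value among them, at 64.12 and 43.51 FPKM in mutant and 51.48 and 60.32 FPKM in control libraries (-0.08, SE 0.20), and here the mutant replicates bracketed the control ones. mrpl-2, a protein next to the catalytic centre, had 32.44 and 36.69 FPKM in mutant libraries, against 29.57 and 30.34 FPKM in control libraries (0.20, SE 0.14). mrpl-37 had 24.3 and 26.31 FPKM in mutant, against 23.54 and 23.95 FPKM in control libraries (0.09, SE 0.15). mrpl-41 had 48.01 and 41.97 FPKM in mutant, against 46.38 and 53.65 FPKM in control libraries (-0.15, SE 0.15). None of these genes passed.

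The 29 mrps genes of the small subunit had a median log2 fold change of 0.11 with 23 positive, and 0.03 with 19 positive without control replicate 1. Their sum was 1441 and 1493 FPKM in the mutant and 1327 and 1415 FPKM in the control libraries. mrps-34, a protein added to the small subunit in the mitochondrial lineage, came closest to the threshold. It had 48.83 and 55.8 FPKM in mutant libraries, against 36.11 and 39.23 FPKM in control libraries, averaging 52.3 ± 4.93 FPKM in the mutant and 37.7 ± 2.21 FPKM in the control (SD, n = 2 each), with a log2 fold change of 0.46, an SE of 0.14 and an adjusted p of 0.105 by limma. Its adjusted p ranged from 0.0794 to 0.321 over the alternative settings. mrps-10 had 44.62 and 53.18 FPKM in mutant libraries, against 40.55 and 41.73 FPKM in control libraries (0.24, SE 0.14, adjusted p = 0.403 by limma). mrps-5, the gene best known from lifespan work, had 66.19 and 62.35 FPKM in mutant and 54.63 and 66.16 FPKM in control libraries (0.09, SE 0.14, adjusted p = 0.772 by limma). Its strains overlapped, and the interval of its difference ran from -0.24 to 0.43. mrps-31 had 30.56 and 29.46 FPKM in mutant libraries, against 30.11 and 37 FPKM in control libraries (-0.15, SE 0.16), with control replicate 2 alone above the rest. mrps-23, which overlaps prp-40 on the opposite strand, had 37.71 and 36.27 FPKM in mutant, against 41.2 and 38.59 FPKM in control libraries (-0.11, SE 0.13). mrps-30 and mrps-18A are counted here by name, but their human counterparts sit in the large subunit. mrps-30 had 46.29 and 49.25 FPKM in mutant and 45.31 and 56.66 FPKM in control libraries (-0.08, SE 0.15). Of the other genes of the mrps-18 family, mrps-18B, mrps-18C and mrps-18.C had log2 fold changes of -0.02, 0.12 and 0.16.

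mrpl-44 needs a separate account, because its row may hold RNA of a second gene. In human mitochondria its counterpart is a large-subunit protein with a fold related to RNase III. The row was the highest of the set and had the lowest log2 fold change, with 149.03 and 158.97 FPKM in mutant libraries, against 171.24 and 173.32 FPKM in control libraries (154 ± 7.03 FPKM in the mutant and 172 ± 1.47 FPKM in the control, SD, n = 2 each), with a log2 fold change of -0.16, an SE of 0.12 and an adjusted p of 0.497 by limma. In the WBcel235 annotation, joined by gene ID, mrpl-44 (WBGene00008514) runs from 9084310 to 9089375 on the reverse strand of chromosome III and has 1 transcript. It shares its first 2 of 8 exons, 166 bases, with mccc-2 (9086744 to 9089375), and the rest of mccc-2 lies within an intron of mrpl-44. mccc-2 encodes the partner subunit of MCCC-1 in methylcrotonyl-CoA carboxylase. The files have no row for mccc-2, and their row for WBGene00008514 lists 2 transcripts, so the level cannot be assigned to mrpl-44 alone. Leaving it out put the median log2 fold change of the remaining 68 genes at 0.11, with 57 positive. A 70th gene of the annotation, mrpl-42 (chromosome IV, 9093563 to 9094456, reverse strand), likewise has no row and was not analysed here. It overlaps lpl-1 on the same strand, where exons of the genes overlap but none is identical.

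**Figure D4:**
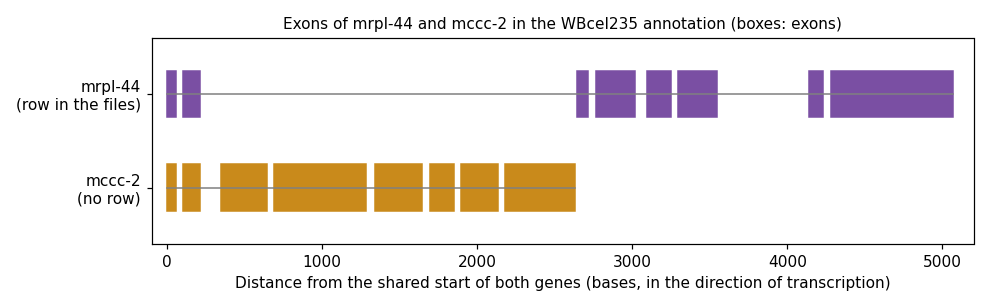
Exons (boxes) and introns (lines) of mrpl-44 and mccc-2 in the WBcel235 annotation, by distance in bases from their shared start. Both genes use the same first 2 exons, the remaining exons of mccc-2 fall in the second intron of mrpl-44, and the files have a row for mrpl-44 only.

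Other members overlap a neighbour as well, counted here by gene span alone, without comparing exons. Of the 69, 14 overlap a protein-coding gene on the opposite strand and 6, mrpl-44 included, one on the same strand. Among the genes described above, mrpl-1 and mrps-18A overlap emc-6 and iglr-2 on the same strand. mrpl-10, mrpl-12, mrpl-24, mrpl-35, mrpl-53, mrps-18B and mrps-23 overlap a gene on the opposite strand. Their own share of the reads may therefore be uncertain, to an extent that was not measured. The 49 that overlap none had a median log2 fold change of 0.11, with 42 positive, so the median was nearly the same without the overlapping genes. By position, no member is on the X chromosome, which held 13.3% of all tested genes, and 22 of 69, or 31.9%, are on chromosome III, which held 16.0%. The cytosolic ribosomal protein genes are also sparse on X, with 2 of 78, and 18 of 78 are on chromosome III. On chromosome IV, which also carries mccc-1, 10 members had a median log2 fold change of 0.12, between 0.01 and 0.21. Their median was 0.07 with median-of-ratios scaling, 0.06 with quantile normalization and 0.02 without control replicate 1, with 7 of 10 positive in each. C. elegans packs many housekeeping genes into operons, in which genes follow each other closely and are transcribed together. A protein-coding gene on the same strand ended within 500 bases upstream of 25 members, or 36.2%, against 18% of the 18775 protein-coding genes of the files. The 25 had a median log2 fold change of 0.12 and the other 44 one of 0.10. In 2 of these pairs both partners belong to the mitochondrial ribosome. mrpl-4 starts 105 bases after mrps-2, and their log2 fold changes were both 0.06. mrps-22 starts 105 bases after dap-3, which encodes a GTP-binding protein of the small subunit named outside the mrps scheme. dap-3 had 45.26 and 46.19 FPKM in mutant and 44.4 and 46.68 FPKM in control libraries. mrps-22 had 43.68 and 45.31 FPKM in mutant and 37.86 and 44.4 FPKM in control libraries. The levels were close except in control replicate 1, and the log2 fold changes were 0.006 for dap-3 and 0.115 for mrps-22.

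Members were also set side by side by number, since low numbers follow bacterial ribosomal proteins and most high ones do not. The 42 genes of the first kind (mrpl up to 36, mrps up to 21, and mrpl-47) had a median log2 fold change of 0.12, from -0.08 to 0.30, with 37 positive. The 27 of the second kind, which include mrps-24 although its human counterpart corresponds to bacterial S3, had a median of 0.09, from -0.16 to 0.47, with 20 positive, and held all 3 genes with an unadjusted p under 0.05. Without control replicate 1 both medians were 0.05. The median of the mean levels was 45.1 FPKM for the first kind and 42.8 FPKM for the second.

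The other nuclear genes of mitochondrial translation did not pass either. Of 10 translation factors listed, 5 matched the files, and none of these was called (0 higher and 0 lower by limma, 0 at an unadjusted p under 0.05; median log2 fold change -0.02). tufm-1, the elongation factor that delivers transfer RNA, had 202.17 and 222.87 FPKM in mutant and 204.91 and 224.69 FPKM in control libraries. Its level per length was thus several times that of most ribosomal protein genes, and the strains overlapped. tsfm-1, its exchange factor, had the highest log2 fold change of the list (0.11), and mrrf-1, which recycles ribosomes, the lowest (-0.05). The median of the translation factors was 0.04 when libraries were scaled to the same FPKM sum, and -0.08 to 0.06 with 1 library left out. Of 15 mitochondrial aminoacyl-tRNA synthetases listed, 12 matched and 0 were called (also 0 at an unadjusted p under 0.05; median 0.15), from -0.18 for ears-2 to 0.34 for nars-2, which charges transfer RNA with asparagine. The median of the 12 was -0.002 with 6 positive without mccc-1(ww4) replicate 1 and 0.04 without control replicate 1. nars-2 had 18.28 and 16.77 FPKM in mutant libraries, against 13.92 and 13.38 FPKM in control libraries (adjusted p = 0.318 by limma). Of 6 genes of mitochondrial DNA upkeep and transcription, 5 were tested and 0 called (0 at an unadjusted p under 0.05; median 0.11). hmg-5, the packaging factor of mitochondrial DNA, had the highest value (0.24), and rpom-1, the mitochondrial RNA polymerase, the lowest (-0.23). Without control replicate 1 the median of the 5 was 0.05, and without mccc-1(ww4) replicate 2 it was 0.19. The sixth, twnk-1, stayed under 1 FPKM.

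The messages that this ribosome translates behaved very differently between libraries. The 12 protein-coding rows that the annotation places on mitochondrial DNA, found by position because none of the 12 listed names matched, summed to 8536 and 1247 FPKM in the mccc-1(ww4) libraries and to 2855 and 8613 FPKM in the control libraries. All 12 were higher in mccc-1(ww4) replicate 1 than in replicate 2, all 12 were higher in control replicate 2 than in replicate 1, and the strains overlapped for every one of them. None was called by limma (0 at an unadjusted p under 0.05). COX3, a subunit of cytochrome c oxidase, had 2636.75 and 388.61 FPKM in mutant and 772.06 and 3189.27 FPKM in control libraries. The within-strain SD of these 12 rows had a median of 1.62 on the log2(FPKM + 1) scale, beside 0.110 for the 69 nuclear genes. The nuclear sums given above, 3428 and 3489 FPKM in the mutant and 3133 and 3325 FPKM in the control libraries, showed no such swing. The 10 genes of the mitochondrial unfolded protein response included 0 called genes. At an unadjusted p under 0.05 by limma there were 2 of the 10, against 21.6% of all tested genes. Their median log2 fold change was 0.10, and 0.04 to 0.17 with 1 library left out. The chaperone gene hsp-6 had the lowest log2 fold change (-0.07), with 265.78 and 306.65 FPKM in mutant and 286.3 and 314.36 FPKM in control libraries. ubl-5, a ubiquitin-like regulator of the response, had the highest (0.52), at 42.7 and 35.08 FPKM in mutant libraries, against 30.53 and 23.34 FPKM in control libraries (SE 0.18, adjusted p = 0.160 by limma). atfs-1, the transcription factor that drives the response, was the other gene with an unadjusted p under 0.05, at 59.91 and 62.4 FPKM in mutant libraries, against 45.82 and 45.02 FPKM in control libraries (0.42, SE 0.12, adjusted p = 0.0943 by limma).

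The cytosolic ribosomal proteins, which make up the cell's other ribosome, give a comparison with the same number of libraries. None of the 78 rpl and rps genes was called, and 1 had an unadjusted p under 0.05. That gene was rpl-42, at 1.56 and 1.88 FPKM in mutant libraries, against 3.85 and 5.41 FPKM in control libraries (log2 fold change -1.04, adjusted p = 0.0653 by limma). It passed in the fit without a mean-variance trend (0.0449) and in that with the replicate block (0.0162). The median log2 fold change of the 78 was -0.16, with 9 of 78 positive, where the mitochondrial set had 0.11 and 57 of 69. The cytosolic values rested on single libraries: the median was -0.02 with 33 of 78 positive without mccc-1(ww4) replicate 1, -0.07 with 24 positive without control replicate 1, and -0.27 with 1 positive without mccc-1(ww4) replicate 2. Under the other scalings it ran from -0.22 with median-of-ratios scaling to -0.02 with quantile normalization. Summed, the cytosolic genes had 120330 and 142210 FPKM in mutant and 152290 and 136170 FPKM in control libraries, so mccc-1(ww4) replicate 1 alone lay below the other mutant and control libraries by a wide margin, and the strains overlapped. The difference between the sets was not tested, since genes of a set are not replicates.

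**Figure D5:**
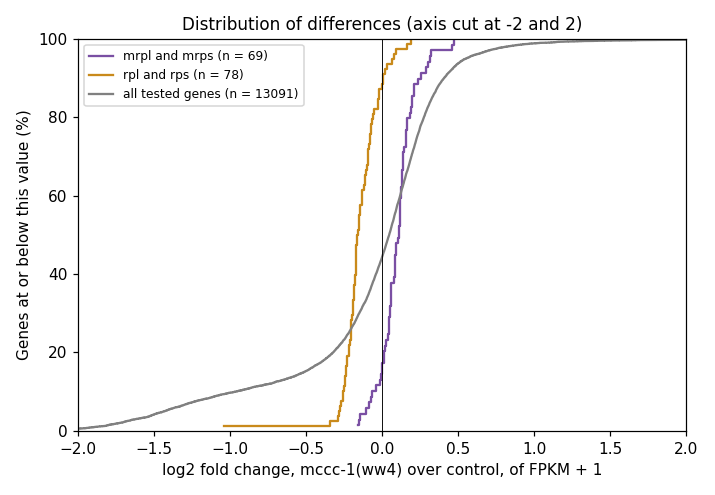
Cumulative share of genes (%) by log2 fold change, mccc-1(ww4) over control, on the log2(FPKM + 1) scale, for the 69 mitochondrial and 78 cytosolic ribosomal protein genes and all 13091 tested genes. Both ribosomal sets form steep curves close to 0, with medians of 0.11 and -0.16, inside the wider spread of all genes.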

How the data were processed

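The authors deposited 1 table of FPKM values per library (unit per the file headers, written to 2 decimals), made with Bowtie2 and RSEM, per the submitters' processing notes. Their versions, genome build, annotation and strandedness: not given in the sources used here. RSEM divides reads among similar or overlapping transcripts by a model, so such genes are uncertain. Genes were named by gene ID, and positions come from the WBcel235 annotation.

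The test was limma 3.58.1 under R 4.3.3, run on log2(FPKM + 1) (group only, mean-variance trend, 2 residual and 4.65 prior degrees of freedom, Benjamini-Hochberg over 13091 genes, threshold 0.05). A gene entered the fit when 2 or more libraries held at least 1 FPKM. Fold changes on this scale understate changes of low genes. Depth was estimated from the spacing of low values of transcripts of 950 to 1050 nt. The mrpl and mrps members, the lists and the filter were chosen with earlier results of these data known; structural groups were formed after values were seen. Named genes were those with the 6 highest and 6 lowest log2 fold changes and the 5 highest and 3 lowest levels. Any called or untested member was added, as were mrps-5, mrps-10, mrpl-1, mrpl-2 and mrpl-37. Others are given to fill out a structure, a family, a locus, the numbering or a depth limit. mrps-25 is an example picked after its values were seen. Of 101 fixed list names, 81 matched. Filters, pseudocount, scalings, variance models, the replicate block and each left-out library were the alternatives.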

Additional observations from a re-analysis of the deposited data

How the results depend on the processing

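No member was called under any of the 15 alternatives. The count over all tested genes, 1095, was 4 with no filter beyond a value above 0 and 4 at a minimum of 0.1 FPKM, 726 after quantile normalization, and 148 to 1164 when 1 library was left out (without mccc-1(ww4) replicate 1, without control replicate 1). With the replicate number as a block it was 1803. The labels do not say that the number pairs samples; same-numbered deviations had a correlation of 0.176 over all tested genes. The median log2 fold change of the 69 genes, 0.108, was 0.159 when scaled to the same FPKM sum and 0.145 with a common total without msp and vit genes. It was 0.053 with median-of-ratios scaling, 0.036 after quantile normalization, and 0.050 to 0.153 when 1 library was left out. The median of all tested genes, 0.046, was 0.095 when scaled to the same FPKM sum and 0.08 with the common total. It was -0.004 with median-of-ratios scaling and 0.094 after quantile normalization. Relative to its mean over the libraries, the median gene stood at -0.087 and 0.000 (log2) in control replicates 1 and 2. In mccc-1(ww4) replicates 1 and 2 it stood at 0.043 and 0.063. Among cytosolic ribosomal proteins 1 gene, rpl-42, was called without a mean-variance trend and 1 with the replicate block. Of the 69 signs, 10 turned with median-of-ratios scaling, 14 after quantile normalization, 5 when scaled to the same FPKM sum, 4 with the common total, and 8 to 13 with 1 library left out; no such gene was called. Among the 23 named genes, mrps-18A turned to 0.048 when scaled to the same FPKM sum and 0.035 with the common total, mrpl-51 to -0.006 and mrps-28 to -0.005 with median-of-ratios scaling. With 1 library left out, mrps-18A ran from -0.092 to 0.085, mrpl-51 from -0.065 to 0.163, mrps-28 from -0.125 to 0.221, mrpl-1 from -0.036 to 0.343, mrps-5 from -0.042 to 0.230, mrpl-23 from -0.350 to 0.199 and mrps-30 from -0.242 to 0.074. The cause was not tested. Leaving out 1 library leaves a strain with 1 sample, whose spread is assumed to equal that of the other strain.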

Other observations

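Within strains, the 69 genes showed a pattern that differed from that of all genes. Across them, the difference between mccc-1(ww4) replicates 1 and 2 and that between control replicates 1 and 2, in log2(FPKM + 1), had a Pearson's r of -0.558, where it was 0.176 across all tested genes. These are correlations across genes of the same 4 libraries, so the points share libraries and are not independent. mrpl-23 had more in mccc-1(ww4) replicate 1 than in replicate 2 (64.12 and 43.51 FPKM) and less in control replicate 1 than in replicate 2 (51.48 and 60.32 FPKM), while mrps-25 had less in mccc-1(ww4) replicate 1 than in replicate 2 (46.59 and 60.03 FPKM) and more in control replicate 1 than in replicate 2 (53.68 and 38.76 FPKM). Both genes were picked after their values had been seen. Other sets shifted as a whole, which is a different measure from a correlation across genes. The rows on mitochondrial DNA were all higher in mccc-1(ww4) replicate 1 and in control replicate 2. The cytosolic ribosomal protein genes moved the other way round from those rows. Their sum was lower in mccc-1(ww4) replicate 1 than in replicate 2 (120330 and 142210 FPKM). It was higher in control replicate 1 than in replicate 2 (152290 and 136170 FPKM). Opposed replicate differences were thus not particular to the 69 genes, and the correlation was not computed for other sets. What the libraries share in this way was not tested.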
